A study of Mus musculus with 8 samples.

Results

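The genes examined here are 44 genes that dividing cells transcribe in S phase or in mitosis, taken as a list of names, with no measured value in the rule. They comprise 24 mitotic genes, 17 S-phase genes and 3 transcription factors that drive them (Foxm1, E2f1 and Mybl2), among 46078 gene IDs in the deposited counts. All 44 are autosomal, and 43 had at least 1 read. Fen1, the flap endonuclease of Okazaki fragment processing, had no read in any pool and was therefore not measured. Allelic RNA-seq reads were collected from female mouse embryonic fibroblasts (MEFs), clonal lines whose strain the labels give as 129S1/SvImJ by CAST/EiJ. The inactive X chromosome (Xi) is of 129 origin (129Sv4/Jae in the study's text). The 4 groups were WT, XiΔXist, XiΔXist shSCR and XiΔXist shYY1, with 2 samples each. XiΔXist cells carry a deletion of Xist, whose RNA coats the inactive X, on their Xi. XiΔXist shSCR and XiΔXist shYY1 carry the same deletion and additionally a lentiviral scrambled hairpin or hairpins against the transcription factor YY1. A group is thus 1 clonal line or its transduced derivative, the shYY1 samples were made with different hairpins, and transduced cells went through puromycin selection. The deposited counts pool the samples of a group, so no value below has a spread between replicates, and every interval covers counting error only.

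The cell cycle transcribes its genes in waves. When cyclin D and cyclin E kinases inactivate the retinoblastoma protein, E2F factors activate the genes of DNA replication, such as the MCM helicase and the enzymes that make deoxynucleotides. Genes of mitosis follow later, driven by the MuvB complex with B-Myb (Mybl2) and FoxM1 at promoters that carry a cell cycle genes homology region (CHR), and the same MuvB core represses them in resting cells as part of the DREAM complex.

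Promoter sequences were examined first, since both waves are known for motifs of this kind. RefSeq windows (GRCm38.p6) of 250 bases before to 50 after the start were found for 36 of the 44 members, and motifs were searched on both strands. A CHR (TTTGAA or TTTAAA) was present in 18 of 20 mitotic windows, in 6 of 14 S-phase windows (42.9%) and in 27.6% of all 32851 windows. A CCAAT box was present in 17 mitotic and 9 S-phase windows, against 37.4% of all windows. The pair of CHR and CCAAT box occurred together in 16 mitotic windows (80.0%) and 4 S-phase windows (28.6%), against 10.7% of all. E2F sites (TTTCCCGC, TTTGGCGC, TTTCGCGC or TTTGCCGC) were found in 6 of 14 S-phase windows (42.9%), in 1 of 20 mitotic windows (5.0%, that of Cdk1) and in 2.26% of all windows. The shorter E2F core GGCGGG, which can overlap an E2F site, was in 17 mitotic and 11 S-phase windows, against 35.3% of all. A YY1 motif (AANATGGC) was found in Bub1, Mcm5 and Rrm1 alone among the 36 windows, against 6.05% of all windows. The windows of Foxm1, Ccna2, Tpx2, Aurkb, Kif20a, Mcm4, Gins2 and Ccne2 were not analysed here. These matches describe letters in a window and do not show that a factor binds there.

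The sequences below show the 3 arrangements on which the comparisons are read, namely CHR with CCAAT box (Cdk1, Plk1 and Ccnb1), E2F site (Mcm3 and Mcm5) and YY1 motif (Bub1, Mcm5 and Rrm1). All matches to the CHR, CCAAT, E2F and YY1 motifs are in capitals, each window is written 5′ to 3′ on the strand of the gene, and neighbouring matches can run together. They lie at chr10:69352863-69353162 (Cdk1, minus strand), chr7:122159185-122159484 (Plk1, plus), chr13:100786437-100786736 (Ccnb1, minus), chr2:127831810-127832109 (Bub1, minus), chr1:20820263-20820562 (Mcm3, minus), chr8:75109259-75109558 (Mcm5, plus) and chr7:102441445-102441744 (Rrm1, plus).
Cdk1: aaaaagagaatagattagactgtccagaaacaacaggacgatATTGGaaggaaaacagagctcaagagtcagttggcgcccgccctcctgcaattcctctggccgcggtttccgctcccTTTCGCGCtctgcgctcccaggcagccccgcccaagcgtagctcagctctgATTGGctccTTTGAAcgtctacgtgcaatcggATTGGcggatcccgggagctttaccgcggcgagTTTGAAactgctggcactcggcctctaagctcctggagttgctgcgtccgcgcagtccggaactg
Plk1: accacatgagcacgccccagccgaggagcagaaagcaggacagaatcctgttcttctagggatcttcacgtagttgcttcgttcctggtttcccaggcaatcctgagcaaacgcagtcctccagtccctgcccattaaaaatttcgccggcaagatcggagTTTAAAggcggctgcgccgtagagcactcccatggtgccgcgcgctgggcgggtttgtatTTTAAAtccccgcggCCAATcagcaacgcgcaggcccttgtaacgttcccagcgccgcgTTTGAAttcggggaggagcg
Ccnb1: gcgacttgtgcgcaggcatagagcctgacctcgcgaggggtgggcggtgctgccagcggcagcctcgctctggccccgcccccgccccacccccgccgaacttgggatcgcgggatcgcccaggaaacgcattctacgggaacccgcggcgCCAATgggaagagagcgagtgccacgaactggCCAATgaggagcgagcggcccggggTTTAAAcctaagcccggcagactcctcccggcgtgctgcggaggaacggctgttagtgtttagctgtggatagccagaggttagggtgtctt
Bub1: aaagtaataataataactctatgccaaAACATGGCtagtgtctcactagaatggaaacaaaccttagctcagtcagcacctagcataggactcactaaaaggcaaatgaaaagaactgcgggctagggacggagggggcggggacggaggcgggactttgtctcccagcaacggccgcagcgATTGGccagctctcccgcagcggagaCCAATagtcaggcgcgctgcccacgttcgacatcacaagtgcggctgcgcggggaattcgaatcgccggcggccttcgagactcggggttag
Mcm3: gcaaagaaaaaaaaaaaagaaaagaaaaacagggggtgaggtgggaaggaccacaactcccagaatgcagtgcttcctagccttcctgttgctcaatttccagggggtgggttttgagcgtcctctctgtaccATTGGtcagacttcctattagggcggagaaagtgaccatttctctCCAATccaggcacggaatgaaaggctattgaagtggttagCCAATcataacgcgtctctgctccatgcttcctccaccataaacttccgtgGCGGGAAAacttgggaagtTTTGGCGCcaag
Mcm5: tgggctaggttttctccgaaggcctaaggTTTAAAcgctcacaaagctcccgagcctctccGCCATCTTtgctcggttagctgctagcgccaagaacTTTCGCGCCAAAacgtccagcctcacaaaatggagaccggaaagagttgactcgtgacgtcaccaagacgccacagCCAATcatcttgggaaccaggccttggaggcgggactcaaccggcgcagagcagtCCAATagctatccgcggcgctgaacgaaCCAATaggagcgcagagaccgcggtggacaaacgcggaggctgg
Rrm1: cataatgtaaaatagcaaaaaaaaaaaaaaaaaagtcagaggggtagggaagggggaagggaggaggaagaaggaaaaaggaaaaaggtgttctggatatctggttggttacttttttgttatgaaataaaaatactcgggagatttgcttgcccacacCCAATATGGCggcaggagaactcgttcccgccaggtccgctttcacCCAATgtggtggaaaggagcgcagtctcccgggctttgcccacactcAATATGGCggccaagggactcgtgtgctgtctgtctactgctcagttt

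Levels are given as CPM, reads of both alleles per 1000000 autosomal allelic reads. Only reads that cover a strain difference are counted, so levels are compared between pools for a gene and not between genes. WT held 18745483 autosomal reads and XiΔXist 21342574, whereas the shSCR and shYY1 pools held 1470870 and 1472083. At these depths 3 reads correspond to 0.160, 0.141, 2.04 and 2.04 CPM. Mitochondrial reads made up 20.2%, 22.3%, 36.7% and 39.5% of the allelic reads, and they do not enter the totals. Exons of 14 members overlap another annotated gene (Top2a, Ccna2, Cdc20, Plk1, Kif20a, Prc1, Nusap1, Ube2c, Mcm7, Gins2, Ccne2, Cdc45, Fen1 and Foxm1), and reads of such pairs may be split or lost. Xist had 35405 reads in the WT pool, 21 in the untreated XiΔXist pool and 0 and 6 in the shSCR and shYY1 pools. Yy1 was at 82.0 CPM in WT and 79.5 CPM in the untreated XiΔXist pool, at 161 CPM (95% counting interval 141 to 183) in shSCR and at 62.5 CPM (50.4 to 76.6) in shYY1. The shYY1 pool thus held 38.8% of the shSCR level (two-sided Fisher's exact test on the reads of the pools, p = 4.6e-16), while shSCR itself stood at 203% of the untreated XiΔXist level. Fisher tests here and below compare the reads of 2 pools and not conditions, and their p-values cover counting error only. Of the 12 fibroblast markers, 11, 12, 10 and 11 had reads, with Vim at 4244, 3481, 4158 and 3799 CPM. Dcn had 611 and 2192 reads in the untreated pools but 0 and 1 in the hairpin pools. None of 5 pluripotency markers had a read, and 8 epithelial markers held at most 16 reads in a pool. Of these 8, 2, 1, 0 and 2 had reads in WT, XiΔXist, shSCR and shYY1. The epithelial keratins Krt5, Krt14 and Krt18 were at 0 in every pool. Like Fen1, these keratins and the pluripotency markers were not measured here, so their zeros do not show absence.

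The cells of all 4 pools transcribed both waves. In WT, the 24 mitotic members summed to 8572 CPM, followed by 8315 for XiΔXist, 7300 for shSCR and 7008 for shYY1. The 17 S-phase members summed to 1799, 2136, 2248 and 2374 CPM in the same order. Mitotic reads were therefore 4.77, 3.89, 3.25 and 2.95 times as many as S-phase reads. This is a ratio of reads between 2 gene sets and not of transcript levels. From XiΔXist to shSCR, mitotic members with a transcript GC content of 47.4% or more rose from 789 to 1621 CPM in sum. Those below it fell from 7526 to 5679 CPM, so no trend of mitotic against S-phase transcription is read from the ratio. Single genes weigh heavily in these sums. Top2a, topoisomerase II of chromosome condensation, gave 18.6% and 19.6% of the summed mitotic reads in the untreated pools, and Mki67, which encodes the proliferation antigen Ki-67, gave 27.5% and 28.2% in the hairpin pools. Mcm4 gave 24.7% and 26.2% of the summed S-phase reads in WT and XiΔXist. Such weights depend on how many strain differences a transcript holds and do not rank the genes by level.

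**Figure D1:**
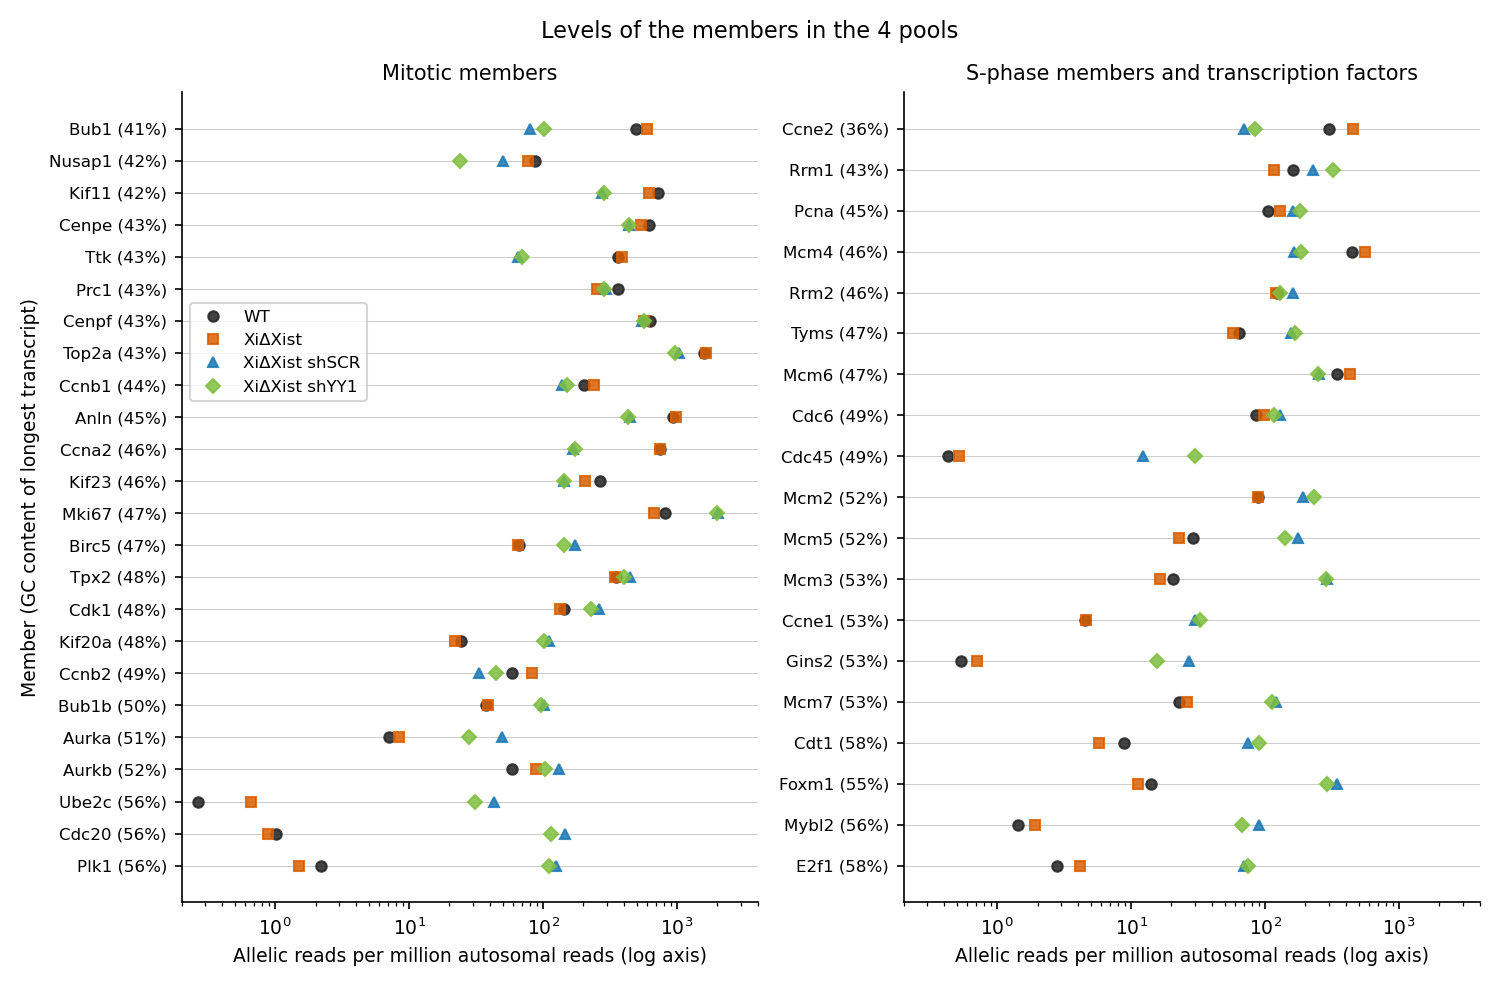
Levels of the 43 measured members in the 4 pools (points, 1 per pool), in CPM on a log axis, with the members of each list ordered by the GC content of their longest transcript. WT and XiΔXist lie close together and so do shSCR and shYY1. Plk1, Cdc20, Ube2c, Mybl2, Cdc45, Gins2, Foxm1, Mcm3 and E2f1 sit more than 10 times higher in the hairpin pools. Bub1, Ttk, Ccna2 and Ccne2 are among those that sit lower there.

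To ask whether the lines differ in growth state, XiΔXist was first compared with WT. The members were nearly level. Of 39 members that had 50 or more reads over the compared pools, 2 were higher by at least 1.5-fold on the scale of CPM + 1 (Aurkb and Ccne2) and 0 were lower. Over all 10315 autosomal genes tested the same limits were passed upward by 7.61% and downward by 13.0%. The median log2 ratio was -0.01 for 22 mitotic members and 0.01 for 14 S-phase members, against -0.08 for all genes. Counting error alone was small, and the 95% interval of the CPM ratio lay wholly above 1 for 14 members and wholly below 1 for another 14. The share of all genes with such an interval is not given here, so these counts are not read as particular to the members. Neither Aurkb nor Ccne2 passed the limit with scaling to all allelic reads. With 1 pool per group, such differences are those between the pools, and fewer cells in cycle cannot be told apart from less of these RNAs per cell.

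Ratios of mitotic members lay on both sides of 1. Aurkb, the kinase of the chromosomal passenger complex (chr11:69045647-69051664), was at 58.6 CPM in WT and 88.6 CPM in XiΔXist. This was a log2 ratio of 0.59, just past the limit, with an interval of the CPM ratio of 1.40 to 1.63. Ccnb2, a B-type cyclin, was at 58.4 and 82.9 CPM, a ratio of 1.41 and within the limit. Bub1, a kinase of the spindle checkpoint, was at 497 and 599 CPM. Ccnb1, the main mitotic cyclin, was at 203 and 240 CPM, and its partner kinase Cdk1 at 143 and 134 CPM. The lowest ratios, none past the limit, were those of Prc1, which bundles microtubules of the central spindle (365 and 251 CPM), Kif23, a kinesin of cytokinesis (265 and 205 CPM), and Plk1, the polo kinase (41 and 32 reads). Mki67 was at 819 and 674 CPM and Top2a at 1597 and 1634 CPM. Cdc20 and Ube2c, which activate and serve the anaphase-promoting complex, had 19 and 5 reads in WT and 19 and 14 in XiΔXist and were under the read minimum.

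Ratios of S-phase members likewise lay on both sides of 1. Ccne2, a cyclin of S-phase entry (chr4:11191351-11204779), was at 301 CPM in WT and 456 CPM in XiΔXist, 1.51-fold higher with an interval of 1.47 to 1.57, whereas Ccne1 was at 4.53 and 4.64 CPM. The 6 subunits of the MCM helicase, whose products act as 1 ring, had ratios in both directions, none past 1.5-fold. Mcm6 was at 341 and 433 CPM and Mcm4 at 443 and 560 CPM, while Mcm5 was at 28.8 and 22.7 CPM and Mcm3 at 20.6 and 16.3 CPM. Mcm2 was at 89.1 and 88.7 CPM. The lowest ratios were those of Cdt1, the licensing factor that loads the helicase (8.80 and 5.76 CPM), and Rrm1, the large subunit of ribonucleotide reductase (162 and 116 CPM), both within 1.5-fold. Its small subunit Rrm2 was at 122 and 121 CPM. Pcna, the sliding clamp, was at 105 and 130 CPM. Summed over the S-phase members, XiΔXist was 18.8% above WT (counting interval of the ratio 1.17 to 1.21), and Ccne2, Mcm4 and Mcm6 had the largest gains in CPM. The mitotic sum of XiΔXist was 0.970 times that of WT (0.964 to 0.977). Foxm1 was at 14.0 and 11.3 CPM, E2f1 at 2.77 and 4.17 CPM and Mybl2 at 1.44 and 1.92 CPM.

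Other genes of replication and mitosis were also mostly level, and 2 of 9 G1 cyclins and kinases were lower in XiΔXist, against 13.0% of all genes. Of 37 further mitotic genes tested, 3 were higher and 1 was lower by at least 1.5-fold, and of 31 further S-phase genes 0 were higher and 1 was lower. Of all genes 7.61% were higher and 13.0% lower. Pttg1, the securin that guards sister chromatid cohesion, was at 3.73 and 13.2 CPM, Kpna2 at 41.2 and 67.8 CPM, and Mad2l1 at 5.12 and 2.76 CPM. Rpa1, the large subunit of the single-strand binding protein, was at 216 and 125 CPM. All 9 G1 genes tested had a log2 ratio below 0, with a median of -0.21, against a median of -0.08 for all genes. The share of all genes below 0 is not given here. The G1 genes past the limit were Ccnd1, a D-type cyclin, at 45.9 CPM in WT and 16.2 CPM in XiΔXist, and Cdk6, its kinase partner, at 345 and 137 CPM. Exons of both overlap another annotated gene. Cdkn1a, the p21 inhibitor, was at 8.32 and 14.8 CPM. Cdkn2a, which encodes p16 and p19Arf, had 30 and 16 reads. Cdkn1c, an inhibitor of the same family as p21, had 90 reads in WT and none in XiΔXist. It passed the read minimum only through WT, and so it had to differ. Of 13 CDK inhibitors and pocket proteins tested, 1 was higher (Cdkn1a) and 1 lower (Cdkn1c) by at least 1.5-fold. Exons of Cdkn1a and Cdkn1c overlap another annotated gene. Fibroblast markers also moved, with 3 of 10 higher and 4 lower, among them Postn at 636 and 136 CPM, and their part in these ratios was not tested.

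**Figure D2:**
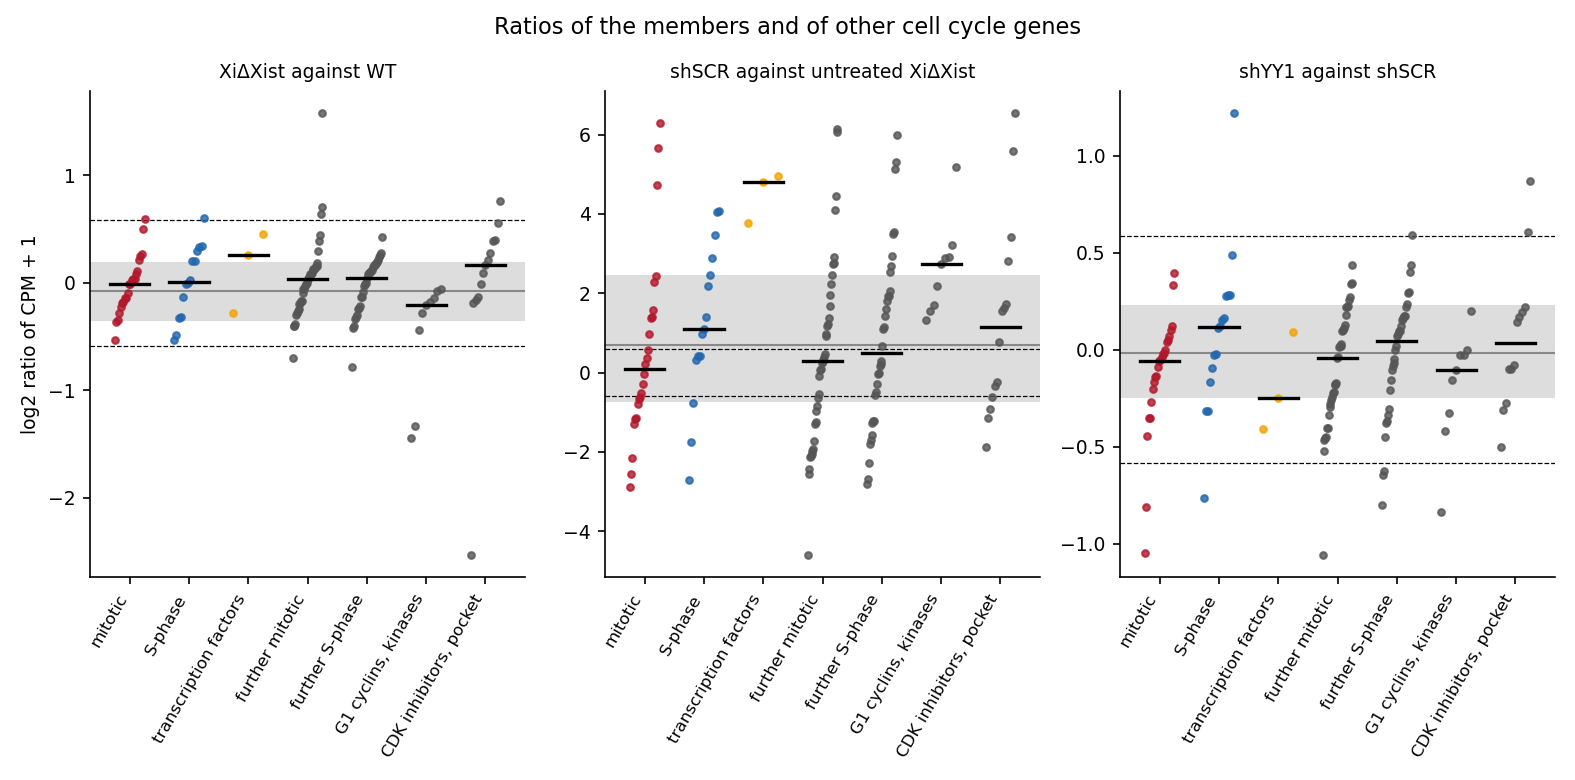
Log2 ratios of CPM + 1 for the members and for other cell cycle gene lists (points, 1 per gene with at least 50 reads) in the 3 comparisons, with list medians as bars, 1.5-fold limits as dashed lines, and the median and quartiles of all autosomal genes as a grey line and band; the vertical scales differ. The mitotic and S-phase members lie mostly inside the limits on the left and right and spread far outside them in the middle.

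The hairpin pools were then set against the untreated XiΔXist pool, which carries the same deletion. This is a comparison of pools that differ in transduction, selection, sequencing depth and, by the study's list of sequencing runs, read length together, and these cannot be told apart. It shares the XiΔXist pool with the comparison above. Of 42 members tested, 21 were higher in shSCR by at least 1.5-fold and 12 were lower. Over 10032 autosomal genes, 51.9% were called higher and 27.2% lower. Mitotic members had 9 calls upward and 9 downward among 24, with a median log2 ratio of 0.09, and S-phase members 9 and 3 among 15, with a median of 1.10. The median of all genes was 0.70. The sign of the mitotic median depended on the scaling, and its interval ran from -0.80 to 1.40. Scaling to all allelic reads, mitochondrial ones included, shifted every log2 ratio here by -0.29 and gave 9 mitotic members higher and 11 lower with a median of -0.20, against 46.9% and 32.1% of all genes. With the median of all genes set to 0, 8 were higher and 12 lower with a median of -0.61, against 40.4% and 39.5%. No direction is therefore given for the mitotic list as a whole.

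Genes of neighbouring mitotic steps went opposite ways in this comparison. Cdc20, the activator of the anaphase-promoting complex (chr4:118432901-118437352), was at 1.01 and 0.89 CPM in the untreated WT and XiΔXist pools (19 reads each) and at 146 and 114 CPM in the shSCR and shYY1 pools. Plk1 had 41 and 32 reads in the untreated pools and was at 125 and 111 CPM in the hairpin pools, and Ube2c was at 0.27, 0.66, 42.8 and 31.3 CPM. With 19, 32 and 14 reads in the untreated XiΔXist pool, these 3 genes passed the minimum of 50 reads only through the hairpin pool, where they had 215, 184 and 63, and so they had to differ. The same holds for Gins2 (15 and 40 reads) and Mybl2 (41 and 132 reads). In the other direction, Bub1 was at 497, 599, 80.2 and 101 CPM, Ttk, a checkpoint kinase, at 360, 387, 65.3 and 70.0 CPM, and Ccna2, cyclin A, at 740, 751, 167 and 173 CPM. Mki67 was at 819, 674, 2007 and 1973 CPM. Cdk1 was at 143, 134, 261 and 227 CPM, while its cyclin Ccnb1 was at 203, 240, 138 and 150 CPM. From XiΔXist to shSCR, Bub1 was 7.38-fold lower on the scale of CPM + 1.

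The S-phase members showed the same spread. Mcm3 was at 20.6, 16.3, 292 and 286 CPM in WT, XiΔXist, shSCR and shYY1, whereas Mcm4, a subunit of the same ring, was at 443, 560, 165 and 186 CPM. Mcm6 went from 433 CPM in XiΔXist to 254 CPM in shSCR. Gins2, a subunit of the GINS complex that activates the helicase, was at 0.53, 0.70, 27.2 and 15.6 CPM, and Cdt1 at 8.80, 5.76, 74.1 and 90.4 CPM. Ccne2 was at 301, 456, 69.4 and 84.2 CPM and Ccne1 at 4.53, 4.64, 29.9 and 32.6 CPM. The E cyclins thus moved in opposite directions. All 3 transcription factors were higher in the hairpin pools and were called higher in shSCR than in XiΔXist, against 51.9% of all genes. Mybl2 had to differ, as given above. Foxm1 was at 14.0, 11.3, 341 and 287 CPM, Mybl2 at 1.44, 1.92, 89.7 and 67.3 CPM, and E2f1 at 2.77, 4.17, 70.0 and 74.7 CPM.

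Further members lay between these extremes, given again in the order WT, XiΔXist, shSCR and shYY1. Aurka was at 7.10, 8.39, 49.6 and 27.9 CPM and Bub1b, the checkpoint protein BubR1, at 37.7, 38.5, 101.3 and 97.1 CPM. Birc5, the survivin subunit of the chromosomal passenger complex, was at 65.9, 65.2, 174 and 144 CPM and the kinesin Kif20a at 24.4, 22.0, 111.5 and 101.2 CPM. These 4 were called higher in shSCR than in XiΔXist, as were Mcm7 (22.6, 26.1, 121 and 113 CPM) and Tyms, thymidylate synthase (63.5, 58.0, 156 and 169 CPM). Kif11, the motor that separates the spindle poles, was called lower, at 714.5, 612.3, 273 and 287 CPM, and so was Anln, the scaffold of the cleavage furrow, at 932, 988, 442 and 431 CPM. Top2a (1597, 1634, 1029 and 968 CPM), Ccnb2 (58.4, 82.9, 33.3 and 44.2 CPM) and Nusap1 (87.4, 77.2, 50.3 and 23.8 CPM) were likewise called lower. Prc1 was at 365, 251, 294 and 283 CPM, Kif23 at 265, 205, 143.5 and 142 CPM and Aurkb at 58.6, 88.6, 132 and 103 CPM, all within 1.5-fold between XiΔXist and shSCR. Also within 1.5-fold were the kinetochore proteins Cenpe (617, 539, 438 and 437 CPM) and Cenpf (628, 569, 551 and 566.5 CPM), the spindle assembly factor Tpx2 (349.5, 346, 444 and 402 CPM) and the licensing factor Cdc6 (84.8, 97.9, 129.9 and 115.5 CPM).

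The direction ran along with the base composition of the transcripts. The GC content of the longest annotated transcript ranged from 36.3% (Ccne2) to 58.3% (E2f1) among the members. Across 42 members, Spearman's rho of the log2 ratio of shSCR over XiΔXist with GC content was 0.842, and across 10032 autosomal genes it was 0.672. These are descriptions across genes of the same 2 pools, and genes are not independent replicates. Among all genes the median log2 ratio was -0.97 in the fifth with the lowest GC content and 3.65 in the fifth with the highest. Of 11 mitotic members with a GC content of 47.4% or more, 8 were called higher and 1 lower, and of 13 below it, 1 was called higher and 8 lower. For S-phase members the counts were 7 higher and 0 lower among 8, and 2 higher and 3 lower among 7. The members called higher at 47.4% or more include Cdc20, Plk1, Ube2c and Gins2, which passed the read minimum only through the hairpin pool. They and Mybl2 had to differ, as given above, and they also enter rho and the count of members called higher. The 3 transcription factors, at 54.6% to 58.3% GC, had log2 ratios of 3.78 to 4.96. All genes in the highest of 20 GC bins (median GC content 55.35%, 56.94% and 59.52%) had medians of 3.26, 3.97 and 4.74. Of 14 housekeeping genes, 8 were higher and 4 lower. The elongation factor Eef2 (57.0% GC) was at 8.25 CPM in XiΔXist and 1919 CPM in shSCR, whereas the actin gene Actb (51.1% GC) was at 2130 and 162.5 CPM. The part of GC content in the members' ratios was not tested. When the median of genes in the same 1 of 20 GC bins was subtracted, an alternative chosen after seeing the data, 13 of 24 mitotic members were higher and 5 lower, with a median of 0.73, and 8 of 15 S-phase members were higher and 3 lower, with a median of 0.90. Of all genes, 53.1% were higher and 20.4% lower after this subtraction. In XiΔXist against WT, rho over all genes was -0.0233.

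**Figure D3:**
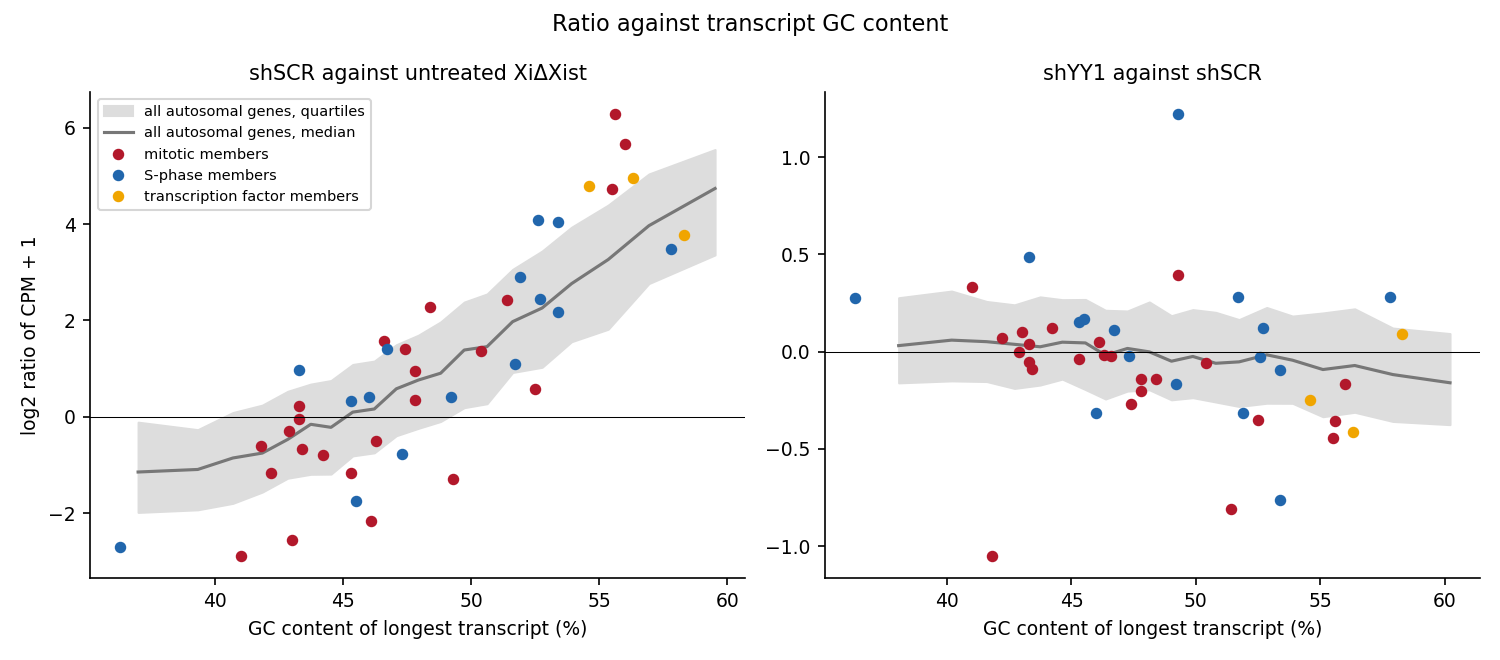
Log2 ratio of CPM + 1 against the GC content of the longest transcript for the members (points), with the median (line) and quartiles (band) of autosomal genes in 20 GC bins. In shSCR against untreated XiΔXist the members climb with GC content along with all genes, whereas in shYY1 against shSCR, on a narrower vertical scale, most lie within the band around 0.

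To determine whether knockdown of YY1 lowered the members, shYY1 was compared with shSCR, pools of nearly equal depth. The members were nearly level again. Of 43 tested, 1 was higher by at least 1.5-fold (Cdc45) and 3 were lower (Nusap1, Aurka and Gins2), against 6.81% higher and 6.94% lower among 7979 autosomal genes. The median log2 ratio was -0.06 for 24 mitotic members and 0.12 for 16 S-phase members, and -0.02 for all genes. The mitotic sum in shYY1 was 0.960 times that in shSCR (counting interval 0.934 to 0.986) and the S-phase sum 1.06 times (1.01 to 1.11). The counting interval of the CPM ratio lay wholly above 1 for 3 members and wholly below 1 for 10. Among the 24 mitotic members these counts were 0 and 5, and among the 16 S-phase members 3 and 3. The share of all genes with such intervals is not given here, so the counts are not read as particular to the members. The spread between cultures is not known, so that a difference of this size cannot be set against it. This comparison shares the shSCR pool with the preceding one.

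The ratio of the mitotic sums differed with the GC content of the members. The 11 with a GC content of 47.4% or more summed to 1621 CPM in shSCR and 1403 CPM in shYY1, a ratio of 0.866 (0.816 to 0.919), and the 13 below it to 5679 and 5604 CPM, a ratio of 0.987 (0.957 to 1.02). Across the 24 mitotic members Spearman's rho of the log2 ratio with GC content was -0.532, and across all genes -0.14, as descriptions across genes of 2 pools. The part of GC content in the mitotic sum was not tested.

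The 4 members past the limit had at most 74 reads in a pool, and with a minimum of 200 reads no member of either list was called. Nusap1, a microtubule-binding protein of the spindle (chr2:119618298-119651244), had 74 reads in shSCR and 35 in shYY1, or 50.3 and 23.8 CPM. It was 2.07-fold lower, with an interval of the CPM ratio of 0.307 to 0.716. Aurka, the kinase of the spindle poles, had 73 and 41 reads, and Gins2 40 and 23. Cdc45, the helicase cofactor, had 18 and 44 reads, or 12.2 and 29.9 CPM, and was 2.33-fold higher. With 18 reads in shSCR, Cdc45 passed the read minimum only through the shYY1 pool, and so it had to differ. Exons of Nusap1, Gins2 and Cdc45 overlap another annotated gene, so that their reads may belong in part to that gene. The remaining mitotic members were within 1.5-fold. Of all 24 mitotic members, 17 had a log2 ratio below 0 and 7 above. The median of all genes was -0.02, and their share below 0 is not given here. Cdc20 was at 146 and 114 CPM, Aurkb at 132 and 103 CPM and Birc5 at 174 and 144 CPM. Mki67 was at 2007 and 1973 CPM, Top2a at 1029 and 968 CPM, Ccnb1 at 138 and 150 CPM, Cdk1 at 261 and 227 CPM and Ube2c at 42.8 and 31.3 CPM. Ccnb2 and Bub1 had the highest ratios, at 33.3 and 44.2 CPM and at 80.2 and 101 CPM, with intervals that include 1.

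Among S-phase members, Rrm1 had the highest ratio after Cdc45, at 227 and 319 CPM, with an interval of 1.22 to 1.62 and within 1.5-fold. Its partner Rrm2 went the other way, at 162 and 130 CPM (0.659 to 0.974). Mcm2 was at 191 and 232 CPM, Mcm5 at 175 and 141 CPM, Mcm3 at 292 and 286 CPM and Pcna at 163 and 181 CPM. Cdt1 was at 74.1 and 90.4 CPM, Ccne1 at 29.9 and 32.6 CPM and Ccne2 at 69.4 and 84.2 CPM. Foxm1 was at 341 and 287 CPM, Mybl2 at 89.7 and 67.3 CPM and E2f1 at 70.0 and 74.7 CPM, each within 1.5-fold, although the counting intervals of Foxm1 (0.738 to 0.960) and Mybl2 (0.572 to 0.980) lay below 1. The 3 members with a YY1 motif in the windows shown above did not share a direction. Bub1 had a log2 ratio of 0.33, Mcm5 of -0.32 and Rrm1 of 0.49. The 18 mitotic members with a CHR had a median of -0.05, near the -0.06 of all 24 mitotic members. Only 2 mitotic members with a window lacked a CHR, so no difference by this motif is read.

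Further genes of the pathway were also mostly level. Of 36 further mitotic genes 0 were higher and 1 was lower, and of 32 further S-phase genes 1 was higher and 3 were lower. Of all genes 6.81% were higher and 6.94% lower, so that most genes tested were level as well. Kif15, a spindle kinesin, was at 144 and 68.6 CPM, Orc1, the large subunit of the origin recognition complex, at 56.4 and 31.9 CPM, Pold1, the catalytic subunit of DNA polymerase delta, at 51.7 and 32.6 CPM, and Chaf1b, a histone chaperone of replication, at 118 and 178 CPM. Of 12 CDK inhibitors and pocket proteins tested, 2 were higher in shYY1 and 0 lower, against the same shares of all genes. Cdkn1a was higher, at 109 and 166 CPM (1.53-fold, interval of the CPM ratio 1.249 to 1.88), as was the repressor E2f5, at 28.6 and 53.0 CPM. Exons of both overlap another annotated gene. Cdkn2a was at 163 and 152 CPM. Myc, a driver of cell growth, was at 90.4 and 50.3 CPM and Ccnd1 at 159 and 119 CPM. Of 6 MuvB and DREAM subunits tested, 0 were higher and 1 was lower, Lin52, with 35 and 18 reads. With 18 reads in shYY1, Lin52 passed the read minimum only through the shSCR pool, and so it had to differ. Of 8 blood cell markers, 5 had reads in each pool, and they summed to 11.6 and 36.7 CPM (17 and 54 reads), with the myeloid genes Lyz2 at 2 and 23 reads, Csf1r at 3 and 14 and Tyrobp at 7 and 11. The leukocyte marker Ptprc had 1 and 0 reads and Hba-a1 none in either. Fibroblast markers had 3 of 9 higher, among them Col3a1 at 48.3 and 120 CPM. Their part in the members' ratios was not tested.

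The share of a member's reads that carry the 129 allele was compared next, to see from which chromosome copies the members were transcribed. In 12 of 41 members with at least 10 reads in each pool (29.3%) the 129 share was above 90% in every pool, against 39.1% of 8679 autosomal genes. They were Mki67, Aurka, Kif11, Cenpf, Tpx2, Anln, Prc1, Mcm3, Rrm1, Gins2, Ccne2 and Foxm1. Kif11 had 4 CAST reads of 13393 in WT, and Foxm1 had 1 of 263. Of the 10 nearest genes with at least 50 reads in WT, 10 had a 129 share above 95% beside Kif11, Cenpf, Anln, Prc1, Rrm1, Gins2 and Foxm1, 9 beside Mki67, Aurka and Ccne2, 8 beside Tpx2 and 5 beside Mcm3. Members read from both alleles also had such neighbours, 7 of 10 beside Plk1, 5 beside Bub1 and 4 beside Pcna, Mcm6 and Ccne1. For the 12 members the values above rest almost wholly on 129 reads. In each pool, 42.6% to 43.1% of the autosomal genes with at least 10 reads in a pool had a 129 share above 90%. Why so many genes were read from 1 allele was not tested.

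Among members read from both alleles, several shifted in the direction of their chromosome. Between WT and XiΔXist, the 129 share differed for 13 of 41 members (Fisher's exact test, two-sided, on the reads of each allele, with Benjamini-Hochberg adjustment over all autosomal genes tested and an adjusted p under 0.05), against 19.9% of 11409 genes. The members and all genes were not matched for reads. The 41 include the 12 members above 90%, and Mki67, at 99.44% in WT and 99.83% in XiΔXist, was among the 13. Ccnb2 had a 129 share of 16.4% (Wilson interval 14.3 to 18.7) in WT and 47.97% (45.7 to 50.3) in XiΔXist. Kif23 went from 34.8% to 51.1% and Ttk from 44.6% to 59.97%. All 3 lie on chromosome 9, whose median over genes read from both alleles went from 35.9% to 51.8%. On chromosome 5, where the median went from 65.3% to 52.3%, Mcm7 went from 62.7% to 49.2% and Tyms from 67.7% to 59.5%. Top2a on chromosome 11 went from 59.4% to 50.96%, beside a chromosome median of 56.99% and 51.2%. Whether the shares of the members moved beyond those of their chromosomes was not tested.

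The 129 share in shSCR differed from that in the untreated XiΔXist pool for 13 of 43 members by the same test, against 21.7% of 9212 genes. Here too the members and all genes were not matched for reads. On chromosome 2 the median 129 share was 20.9 percentage points higher in shSCR than in XiΔXist, at 70.9%, and 70.4% in shYY1. There Bub1 was at 58.6% in XiΔXist, 92.4% in shSCR and 88.6% in shYY1, Bub1b at 54.3%, 79.2% and 68.5%, and Nusap1 at 53.9%, 74.3% and 77.1%. Mybl2, on the same chromosome, was at 63.4% of 41 reads, 62.9% of 132 and 75.8% of 99, and Pcna at 80.5%, 85.8% and 88.7%, so that not every member there moved as the chromosome median did. On chromosome 12 the median was 50.4%, 28.3% and 27.96%, and Rrm2 was at 38.3%, 15.97% and 24.6%. Mcm5 on chromosome 8 was at 37.1%, 54.3% and 59.9% while its chromosome stayed at 52.9%, 53.4% and 52.7%. Birc5 was at 46.8%, 64.5% and 55.2% on chromosome 11, whose medians were 51.2%, 52.5% and 52.9%. Between shSCR and shYY1 no member differed after adjustment (0 of 43), against 1.20% of 9720 genes, likewise after adjustment. Without adjustment 10 members had a p under 0.05 by the same exact test. The unadjusted share of all genes is not given here, so this count is not read further. The lowest adjusted p among members by this exact test was that of Ttk (0.065), at 38.5% of 96 reads and 62.1% of 103.

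**Figure D4:**
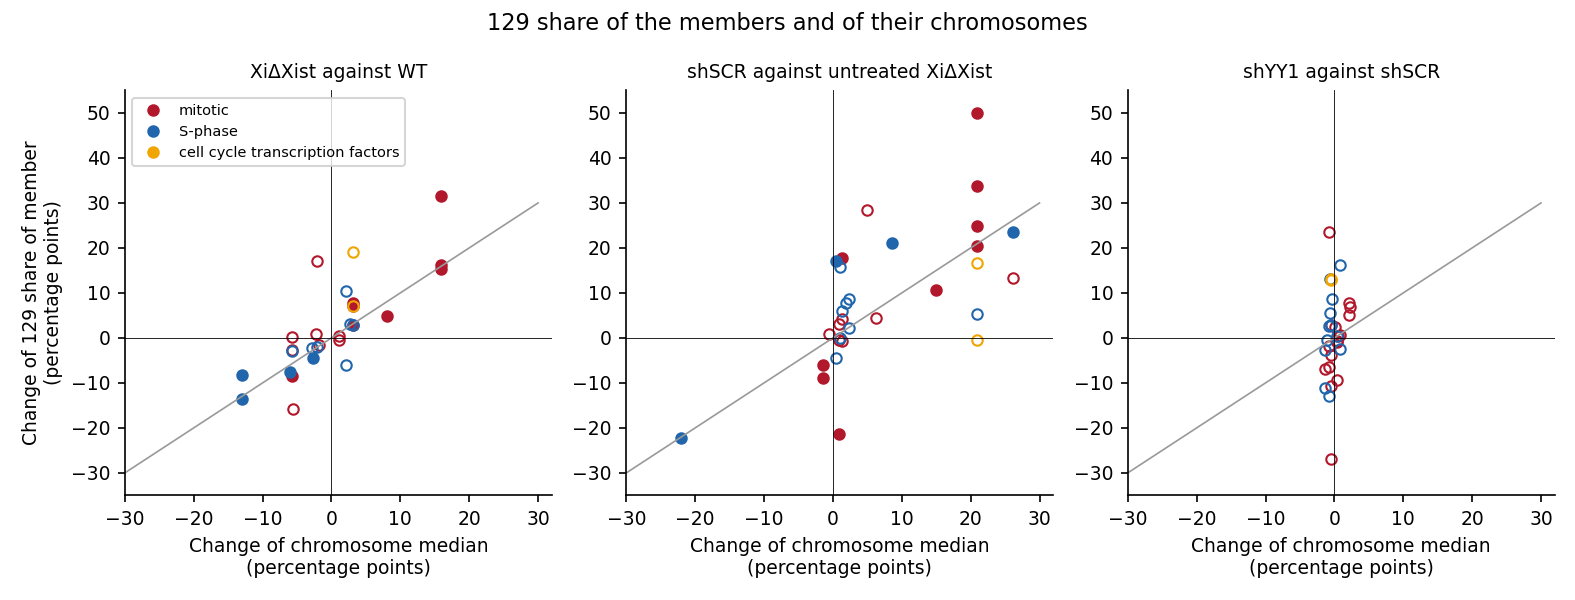
Change of the 129 share of each member read from both alleles (vertical axis, percentage points) against the change of the median of its chromosome (horizontal axis) in the 3 comparisons; filled points passed the adjusted Fisher test, open points did not, and the grey line marks equal change. Ccnb2 lies 15.7 points above the line on the left, and Kif23 and Ttk lie near it there, while in shYY1 against shSCR the chromosome medians barely move.

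Cell cycle genes of the X chromosome, which have an Xi copy of 129 origin, were read almost wholly from the active X, apart from Utp14a, a ribosome biogenesis factor. In WT, 13 of 18 listed genes had at least 10 reads. Without Utp14a, the Xi gave 6 of 22023 reads in WT and 25 of 24525 in XiΔXist, and 2 of 1414 and 2 of 1359 in the shSCR and shYY1 pools. Utp14a had an Xi share of 34.1% (Wilson interval 31.2 to 37.2) in WT and 38.6% (35.9 to 41.4) in XiΔXist, but 0 of 68 reads in shSCR (a count of 0 leaves room for up to 4.41%) and 1 of 76 in shYY1. Its exons overlap another annotated gene. Totals of both alleles were within 1.5-fold between WT and XiΔXist in 12 of 12 X-linked genes tested. Kif4, a kinesin that works with Prc1, was at 45.1 and 35.2 CPM, and Pola1, the catalytic subunit of DNA polymerase alpha, at 396 and 368 CPM.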

How the data were processed

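RNA-seq of MEFs was analysed in 8 samples of 4 groups. The deposited values are raw counts of reads per Ensembl gene and allele. According to the methods, the authors pooled the replicates, aligned them to an N-masked mouse genome (mm10) with TopHat, removed reads of low mapping quality, split them by allele with SNPsplit and counted exonic reads with featureCounts (version 1.6.3, per the labels). Neither the release of the annotation nor strand use was given in the sources used here, so reads of overlapping or antisense genes cannot be told apart. By the study's list of sequencing runs, the untreated and hairpin pools were sequenced with different read lengths.

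Counts of both alleles were scaled to autosomal allelic reads (CPM). Gene names, positions and transcript GC content were taken from GENCODE M21 (GRCm38), which matched 45229 of 46078 IDs. Log2 ratios used a pseudocount of 1 CPM, a minimum of 50 reads over the compared pools and a limit of 1.5-fold. With 1 pool per group, nothing tests the conditions against a spread between replicates. Intervals of ratios are exact (Clopper-Pearson) and those of shares Wilson, at 95%, and cover counting error only. Fisher tests on 129 and CAST reads, for genes with at least 10 reads in each pool, compare the reads of 2 pools, with p-values for counting error only. The members named are, for each comparison, the 3 largest rises and falls per list and fixed examples, with further lists by the 2 largest; a few others were named after their values were seen. Members and lists were chosen with earlier results of these data known. Scripts were tested on simulated data. Python 3.11.15, numpy 2.4.6, pandas 2.3.3, scipy 1.17.1 and matplotlib 3.10.9 were used.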

Additional observations from a re-analysis of the deposited data

How the results depend on the processing

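No paired analysis was possible because the deposited columns pool both replicates of a group, and for the same reason no replicate could be left out. Of 72 medians of member log2 ratios recomputed under alternatives, 71 stayed within the interval around the main median, which for the mitotic median in shSCR against untreated XiΔXist is wide (-0.80 to 1.40). The exception was the mitotic median in XiΔXist against WT with CAST reads only, at -0.20. The sign changed in 14 recomputations of 4 medians whose intervals include 0. The mitotic median in shSCR against untreated XiΔXist, 0.09, ranged from -0.61 with median-of-ratios scaling (8 members higher and 12 lower) to 0.73 with GC bins, and was below 0 in 5 of 12. The S-phase median in shYY1 against shSCR, 0.12, was -0.09 with CAST reads only. In XiΔXist against WT, the mitotic median ranged from -0.20 to 0.07 and the S-phase median from -0.05 to 0.09. Counts of members are small and moved more often, in 33 of 168 recomputations.

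In XiΔXist against WT, the 1 mitotic member higher became 0 with scaling to all allelic reads, with GC and length bins and at 2-fold, and 2 at a 25% difference, and the 0 lower became 2 with CAST reads only and 3 at a 25% difference. The 1 S-phase member higher became 0 with scaling to all allelic reads, without genes of overlapping exons, with chromosome medians subtracted and at 2-fold, and 3 at a 25% difference. The 0 lower became 1 with a pseudocount of 0.1 and with CAST reads only, and 3 at a 25% difference. In shSCR against untreated XiΔXist, the 9 mitotic members higher became 5 with CAST reads only and without overlapping genes, and the 9 lower became 5 with GC bins and 4 with GC and length bins. In shYY1 against shSCR, the 2 mitotic members lower became 0 at 200 reads, 1 without overlapping genes and at 2-fold, and 5 at a 25% difference. The 0 higher became 1 with 129 reads only and 2 at a 25% difference. The S-phase members there, 1 higher and 1 lower, became 0 and 0 at 200 reads, with CAST reads only and without overlapping genes, 0 higher with 129 reads only, 0 lower at 2-fold and 2 higher at a 25% difference. The count of members whose 129 share differed went from 13 to 8 in XiΔXist against WT when a change of at least 0.1 was required in place of the test. In shYY1 against shSCR it went from 0 to 9 with that rule and to 2 with CAST reads scaled. Yy1 in shYY1 was at 38.8% of shSCR, and at 37.1% with scaling to all allelic reads. The GC, length and chromosome corrections were added after seeing the data. In the hairpin pools 3 reads are 2.04 CPM, which limits the weakly read members, and the cause of these shifts was not tested.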
